A study of Homo sapiens with 22 samples.

Results

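The ETS transcription factor genes FLI1, ERG, ETS2, ETV1, ETV4, ETV5, ETV6, ELF1, ELK3 and GABPA were followed across 14 chromatin immunoprecipitation peak lists. They were chosen by name as 10 of the 20007 protein-coding genes of GENCODE release 44, and all 10 were found in it. Every peak over a gene body and 10 kb to each side of it was taken. TC-32 is an established Ewing sarcoma line. Both arms were TC-32 cells reverse transfected with 20 nM siRNA, either the negative control siNEG or siFLI1, which is directed against FLI1. The time after transfection, the fusion's breakpoint and the degree of knockdown are not given in the sources used here. Each arm had 2 lists for ETS1, 2 for H3K27ac and 2 for H3K4me3, and 1 further H3K27ac list whose antibody label begins with ab4729 and goes on with the catalogue number that the replicated lists carry, so which antibody it used is unclear. Input libraries numbered 8 and were not analysed here.

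ETS factors share a DNA-binding domain that recognises GGAA, most of them with a preference for CCGGAA. Ewing sarcoma is driven by a fusion of EWSR1 with an ETS gene, usually FLI1 and less often ERG, ETV1, ETV4 or FEV. The fusion keeps the FLI1 DNA-binding domain and can also occupy runs of GGAA. H3K27ac marks active promoters and enhancers, and H3K4me3 marks promoters.

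Estimated depths, in M (mega) tags, were 21.6 to 28.9 for ETS1, 36.7 to 37.6 for H3K27ac, 36.0 to 37.9 for H3K4me3, and 28.9 and 27.6 for the siNEG and siFLI1 ab4729 lists. The lowest summit of an H3K27ac or H3K4me3 list stood at 13 to 15 tags, so a region missing from a list may hold fewer tags than that. H3K4me3 lay at the promoters of 8 of 8 Ewing sarcoma markers in all 4 lists, and at those of 0 of 4 leukocyte and 0 of 3 skeletal muscle markers in any list. It also lay at 1 of 4 endothelial markers (KDR) and 1 of 4 epithelial ones (KRT18) in all 4 lists, and at the epithelial marker EPCAM in siNEG replicate 1 alone. In the whole genome, H3K27ac peaks covered 63.05 and 58.64 Mb in siNEG and 69.25 and 65.58 Mb in siFLI1. H3K4me3 peaks covered 43.26 and 44.74 Mb in siNEG and 40.54 and 41.68 Mb in siFLI1. Summit heights of the ETS1 peaks in the 2 siFLI1 lists differed by less than sampling noise does (chi-square per degree of freedom 0.417 over 496 regions, against 0.814 over 80 regions for the siNEG pair; among regions of at least 100 summed tags, 0.584 over 30 and 0.617 over 16), and these 2 lists were counted as 1 sample. The siFLI1 H3K27ac pair gave 0.932 over 20011 regions, and 1.08 over the 6318 of at least 100 summed tags. Its lists were counted as 2 samples. Nothing in the labels says whether replicates came from separate cultures.

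The sequences below are from hg38, on the plus strand, and show sites at which 1 or both replicated lists of an arm held a peak and neither replicated list of the other arm did. The first pair is the ETS1 peak at the GABPA promoter, with CCGGAA or its complement TTCCGG in capitals. Site 1 is chr21:25735556-25735585 and site 2 is chr21:25735621-25735650.
GABPA site 1: cgacagggccgaTTCCGGagtgggtgagtg
GABPA site 2: gggccggcctcgTTCCGGggccttttcccc
The other ETS1 peak at a member lay at an internal ETV4 start, chr17:43530870-43531046. In it and in the H3K27ac windows that follow, GGAA and TTCC are in capitals.
ETV4 ETS1 peak: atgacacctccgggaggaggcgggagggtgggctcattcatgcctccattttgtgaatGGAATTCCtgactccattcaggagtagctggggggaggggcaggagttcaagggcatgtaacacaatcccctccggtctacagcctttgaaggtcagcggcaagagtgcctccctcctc
Of the gained H3K27ac regions, those of highest mean fold were in the first part of FLI1 (chr11:128716639-128716789), before ELK3 (chr12:96187644-96187794) and in ELK3 (chr12:96219627-96219777). Each window is centred between the summits of both siFLI1 lists.
FLI1 gained: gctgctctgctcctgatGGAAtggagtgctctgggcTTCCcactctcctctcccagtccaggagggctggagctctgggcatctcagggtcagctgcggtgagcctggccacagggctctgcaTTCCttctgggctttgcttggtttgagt
ELK3 upstream gained: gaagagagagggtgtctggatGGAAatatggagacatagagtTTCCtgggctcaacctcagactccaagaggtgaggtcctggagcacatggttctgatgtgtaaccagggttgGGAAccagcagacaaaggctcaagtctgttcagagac
ELK3 gene body gained: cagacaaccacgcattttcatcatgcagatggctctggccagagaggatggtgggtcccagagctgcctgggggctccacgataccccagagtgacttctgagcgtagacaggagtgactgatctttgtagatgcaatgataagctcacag
Of the lost ones, those of highest mean fold were in ETV6 (chr12:11669287-11669437 and chr12:11764097-11764247) and in ETV4 (chr17:43563450-43563600).
ETV6 first lost: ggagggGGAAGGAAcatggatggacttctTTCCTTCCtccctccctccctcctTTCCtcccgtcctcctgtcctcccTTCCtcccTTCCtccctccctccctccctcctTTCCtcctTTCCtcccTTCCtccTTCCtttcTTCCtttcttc
ETV6 second lost: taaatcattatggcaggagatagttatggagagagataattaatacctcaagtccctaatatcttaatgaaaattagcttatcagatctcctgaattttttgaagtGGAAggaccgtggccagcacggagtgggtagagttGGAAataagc
ETV4 lost: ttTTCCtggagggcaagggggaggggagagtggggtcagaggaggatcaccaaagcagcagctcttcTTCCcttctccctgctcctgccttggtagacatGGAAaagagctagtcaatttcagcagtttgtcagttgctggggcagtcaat
The first lost ETV6 window holds 12 matches to GGAA or TTCC, against 0 in the ELK3 gene body window and 2 or 3 in the other 4 H3K27ac windows. The second lost ETV6 window holds neither siNEG summit, since these lie on either side of it. No H3K27ac region of the 10 genes had 4 or more GGAA in a row within 1 kb of its centre on either strand (0 of 85), and such a run lay near 1.85% of all 90572 H3K27ac regions. The longest run near any of the 85 was 2 GGAA.

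The 10 genes did not move as a block in H3K27ac. Their windows held 85 merged H3K27ac regions. Gained regions were those in the 2 siFLI1 lists and absent from the 2 siNEG lists, and lost regions the reverse. Shared regions were in all 4 lists and mixed ones were the rest. Of the 85, 6 were gained (7.06%, against 8.19% of all H3K27ac regions) and 4 were lost (4.71%, against 4.86%), so both shares were near those of the genome. Another 23 were shared (27.1%, against 25.1% of all H3K27ac regions) and 52 mixed (61.2%, against 61.9%). Of the mixed ones, 42 were in 1 list only. The counts rest on agreement of both lists of an arm: 19 or 14 regions counted as gained without siFLI1 replicate 1 or 2, 19 or 15 as lost without siNEG replicate 1 or 2, and 8 as lost without siFLI1 replicate 1. Gained regions were in ELK3 (4), FLI1 (1) and ETV6 (1). Lost regions were in ETV6 (2), ETV4 (1) and GABPA (1). At least 1 gained region lay in 3 of the 9 members with a peak and in 29.7% of all protein-coding genes with one. At least 1 lost region lay in 3 of 9 members and in 17.1% of those genes. The members' windows were longer, at a median of 108 kb against 47.5 kb for all protein-coding genes, and these shares were not adjusted for that. Every gained or lost region was outside the promoters, 9 of them in gene bodies and 1 in a flank. Their summits stood at 18 to 40 tags, near the low end of the 18 to 204 tags of the shared regions.

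**Figure D1:**
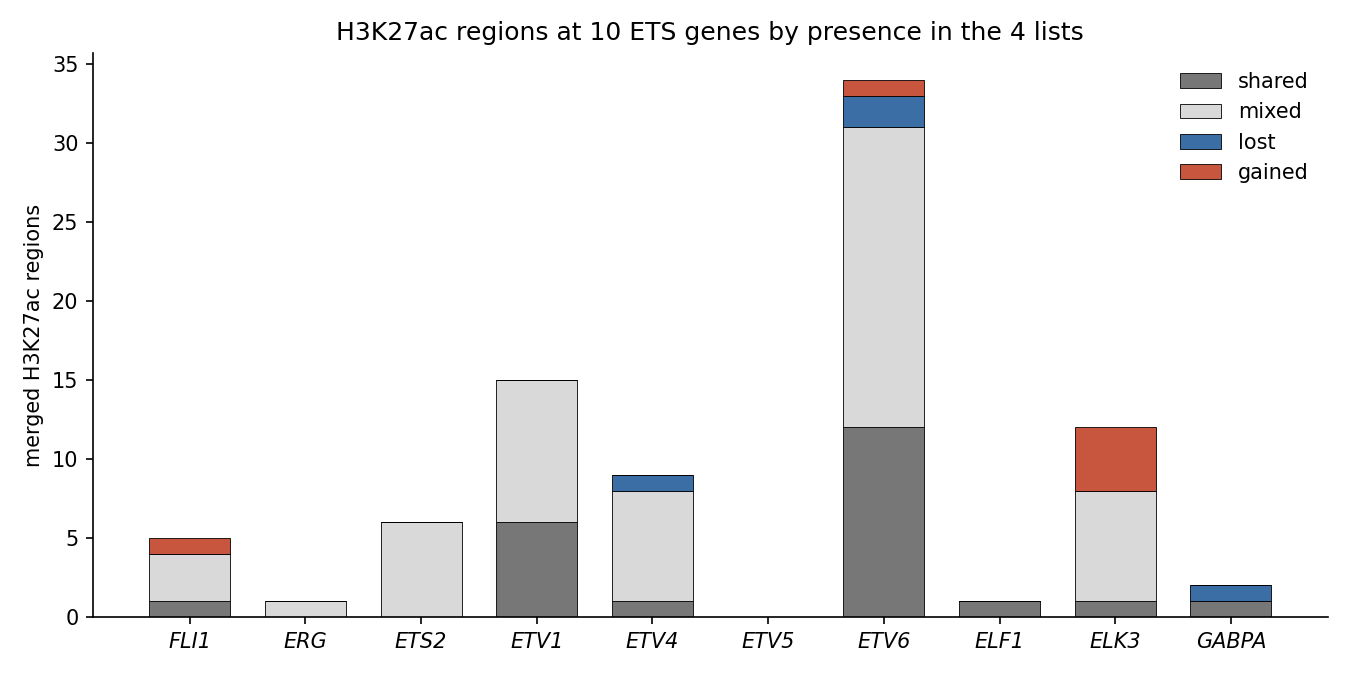
Merged H3K27ac regions (count, vertical axis) at each of the 10 genes, split by presence in the 2 siNEG and 2 siFLI1 lists. ELK3 has 4 gained regions of 12, ETV6 has 2 lost and 1 gained of 34, and ETV5 has none of any kind.

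Length covered by H3K27ac peaks divided the members. It was longer in both siFLI1 lists than in both siNEG lists at FLI1, ETS2, ELF1 and ELK3, 4 of the 9 members with a peak. The same held for 44.1% of protein-coding genes with a peak, so the longer share was near that of all genes. It was shorter in both siFLI1 lists at ETV1, ETV4, ETV6 and GABPA, also 4 of 9, against 15.5% of those genes. At GABPA the arms lay close together, at 3.40 and 4.16 kb in siNEG and 3.27 and 3.22 kb in siFLI1 (log2 ratio -0.22). With gene bodies only, the longer ones were FLI1 and ETS2, and the shorter ones were ETV1, ETV4 and ETV6. GABPA was also no longer among the shorter ones with peaks at a −log10 q of at least 5. The summed length over the 10 windows was 64.16 and 53.78 kb in siNEG and 52.32 and 49.93 kb in siFLI1. The arms did not overlap, and the log2 ratio was -0.20 (SD of log2 length 0.18 in siNEG and 0.05 in siFLI1, n = 2 per arm, exact two-sided permutation p = 0.33, the smallest that 2 against 2 allows). Over the whole genome the ratio went the other way, at 0.15 (exact permutation p = 0.33, n = 2 per arm). The largest decreases in kb were at the 2 longest covers, those of ETV6 and ETV1. The ratio was -0.07 without siNEG replicate 1 and -0.33 without siNEG replicate 2. Only the ab4729 lists gave the opposite sign among the settings tried, at 0.73 with 1 list per arm, where the genome's ratio was also 0.73.

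**Figure D2:**
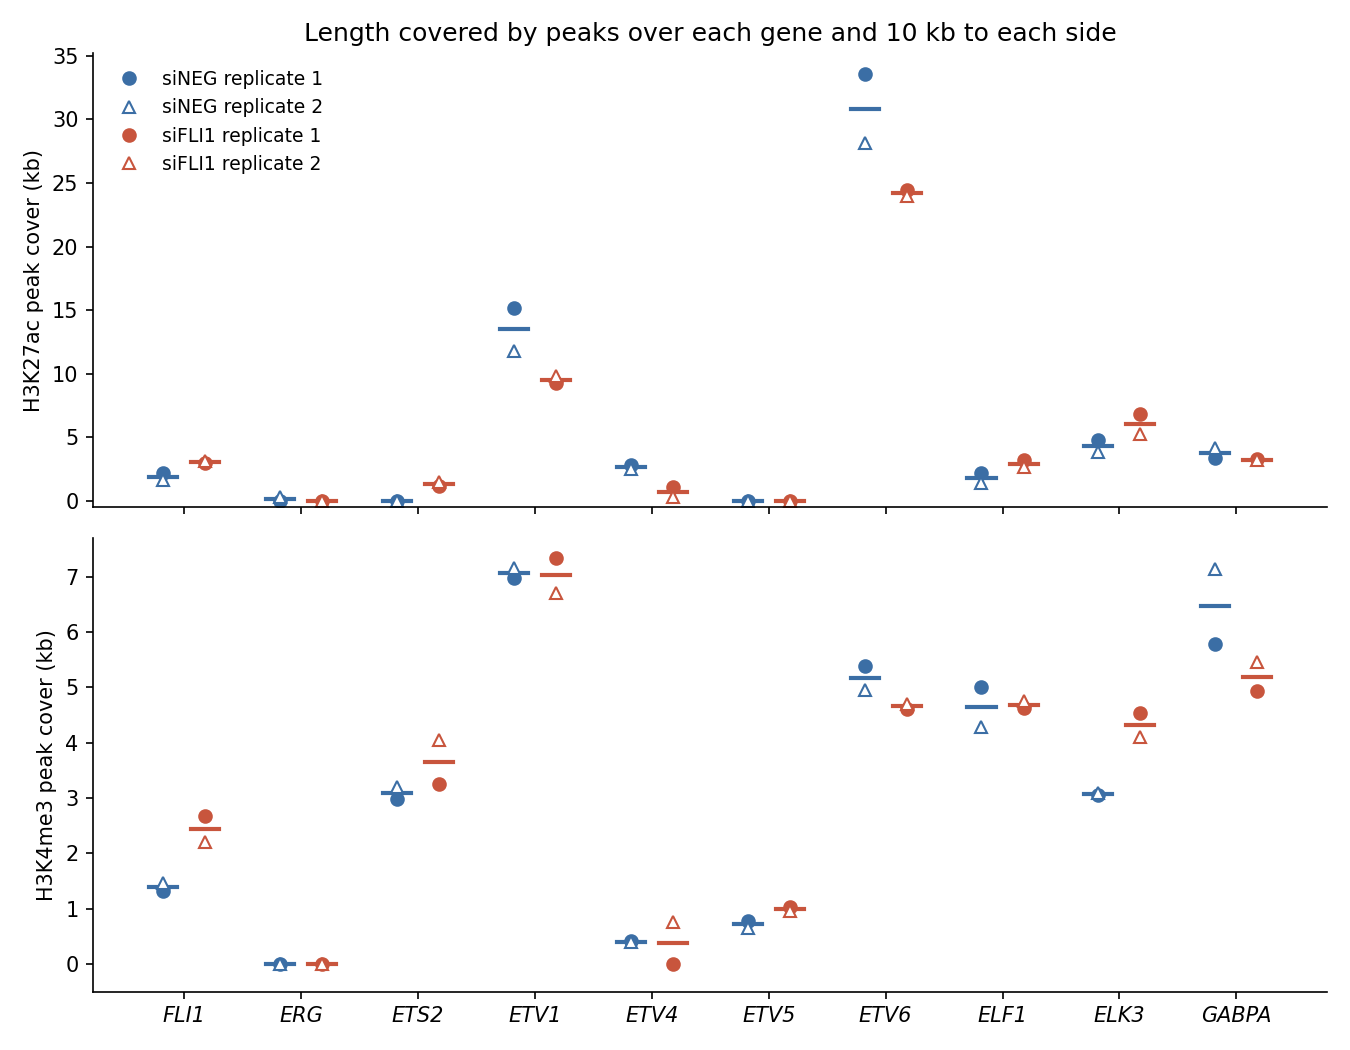
Length covered by H3K27ac peaks (top) and H3K4me3 peaks (bottom) in kb over each gene and 10 kb to each side. Circles and triangles are the 2 replicates of each arm and bars are their means, with ETV6 and ETV1 longest in H3K27ac and lower in both siFLI1 lists.

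FLI1 (chr11:128686535-128813267, plus strand) encodes the ETS part of the fusion and is itself an activator in blood and endothelial cells. Its H3K27ac cover was 2.17 and 1.63 kb in siNEG and 2.96 and 3.18 kb in siFLI1. A region at chr11:128715381-128717540, 22.4 kb after the start and within the gene, was gained, with summits of 33 and 38 tags in the siFLI1 lists. The siFLI1 ab4729 list also held it and the siNEG ab4729 list did not. A region 96.0 kb after the start (chr11:128788967-128791158) was in all 4 lists, at 46 and 32 tags in siNEG and 25 and 23 tags in siFLI1. The siNEG ab4729 list held a peak in it, and the siFLI1 one held a peak just outside it, within 1 kb of its end. The FLI1 promoter held H3K4me3 and no H3K27ac in any list. Its H3K4me3 region, chr11:128693171-128695840, also spans the start of the antisense gene SENCR and stood at 46 and 62 tags in siNEG and 78 and 81 tags in siFLI1, with no overlap. Tags of the intact and of the rearranged FLI1 allele cannot be told apart in these lists.

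ERG (chr21:38380027-38661780, minus strand), the closest relative of FLI1 and an alternative fusion partner, was almost unmarked. No H3K4me3 or ETS1 peak lay in its 302 kb window in any list. One H3K27ac region of 0.28 kb was in siNEG replicate 2 alone. ETS2 (chr21:38805183-38824955, plus strand), an activator that answers to MAP kinase signalling, lies beside ERG on the same chromosome. Its H3K4me3 promoter region, chr21:38805050-38808810, stood at 225 and 207 tags in siNEG and 272 and 290 tags in siFLI1, with no overlap. ETS2 had no H3K27ac peak in either siNEG list and 1.19 and 1.51 kb in the siFLI1 lists. That cover was made of 6 regions, each in 1 siFLI1 list only, so no single ETS2 region was found in both replicates. Neither ab4729 list held a peak at ETS2. Of these 6, the promoter ones were both in siFLI1 replicate 2, with 20 and 18 tags. A further H3K4me3 region at an ETS2 start, chr21:38809165-38809450, was in siFLI1 replicate 2 alone, with 27 tags.

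The PEA3 group, ETV1, ETV4 and ETV5, acts below growth factor receptors, and ETV1 and ETV4 are themselves fusion partners in rare Ewing sarcomas. ETV1 (chr7:13891229-13991425, minus strand) had the second-longest H3K27ac cover of the 10 genes, 15.20 and 11.81 kb in siNEG and 9.26 and 9.81 kb in siFLI1 (log2 ratio -0.50). None of its 15 regions was gained or lost. A promoter region of 24 tags in siNEG replicate 1 and 21 tags in siFLI1 replicate 1, chr7:13985245-13986563, was in neither other list. The promoter region chr7:13987872-13991450 stood at 111 and 84 tags in siNEG and 51 and 58 tags in siFLI1. A region at an internal ETV1 start, chr7:13902584-13907190, stood at 101 and 81 tags in siNEG and 44 and 52 in siFLI1. Its neighbour chr7:13907848-13910294, at 65 and 49 tags in siNEG and 18 and 24 in siFLI1, had the lowest ratio of any shared H3K27ac region of the 10 genes (log2 -1.42). These 3 were lower in both siFLI1 lists. The regions 70.0 and 68.9 kb after the start went the other way, at 63 and 38 against 67 and 72 tags, and at 27 and 34 against 35 and 35 tags. The most upstream shared region, chr7:13991525-13992571, overlapped between arms, with 67 and 44 tags in siNEG and 59 and 52 in siFLI1. H3K4me3 over the ETV1 promoter (chr7:13984588-13992005) overlapped between arms relative to depth, at 146 and 168 tags in siNEG and 169 and 191 in siFLI1.

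ETV4 (chr17:43527844-43579620, minus strand) had 2.85 and 2.48 kb of H3K27ac in siNEG and 1.13 and 0.34 kb in siFLI1 (log2 ratio -1.86). The region chr17:43563274-43563763, at -17.2 kb from the MANE start and inside a longer ETV4 transcript, was lost, from 19 and 23 tags. In 2 further regions siFLI1 replicate 2 alone lacked a peak. At chr17:43535675-43536345, siNEG held 38 and 28 tags and siFLI1 replicate 1 held 45. At chr17:43548231-43549674, siNEG held 47 and 33 tags and siFLI1 replicate 1 held 33. At the MANE start, ETV4 had H3K4me3 of 20, 31 and 22 tags in siNEG replicates 1 and 2 and siFLI1 replicate 2, in a region shared with the start of DHX8, and no H3K27ac. At the internal start next to the ETS1 peak shown above, siFLI1 replicate 2 alone held H3K27ac (chr17:43530435-43530735, 24 tags). Neither ab4729 list held a peak at ETV4. ETV5 (chr3:186046314-186110318, minus strand) had no H3K27ac peak in any list. Its promoter H3K4me3 region, chr3:186107981-186109139, was low, at 36 and 23 tags in siNEG and 57 and 36 in siFLI1, which overlapped. A second one, chr3:186109487-186109761, was in siNEG replicate 1 alone, with 21 tags.

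ETV6 (chr12:11649674-11895377, plus strand) is a repressor with a self-associating pointed domain. It held 34 of the 85 H3K27ac regions and the longest cover of the 10, 33.54 and 28.11 kb in siNEG and 24.45 and 23.96 kb in siFLI1 (log2 ratio -0.35). Its promoter region (chr12:11648134-11651812) was alike in both arms, at 120 and 112 tags in siNEG and 132 and 113 in siFLI1. The difference lay inside the gene. Of its 12 shared regions, 5 were lower and 2 higher in both siFLI1 lists. The tallest of the 5, chr12:11854303-11857730, lay 206.3 kb after the start, at 117 and 74 tags in siNEG and 59 and 54 in siFLI1. The region 138.7 kb after the start (chr12:11787296-11789506) had 86 and 44 tags in siNEG and 31 and 29 in siFLI1. The lost regions were chr12:11668709-11669554, at 40 and 28 tags in siNEG, and chr12:11763841-11764615, at 29 and 21 tags. The second of these was nonetheless in the siFLI1 ab4729 list. The gained region, chr12:11795737-11796733, had 31 and 20 tags and lay beside a shared one. It holds 2 CCGGAA matches, the nearest 1 bp from the siFLI1 replicate 1 summit and 163 bp from that of replicate 2. H3K4me3 at the ETV6 promoter (chr12:11648127-11653519) was lower in siFLI1, at 388 and 405 tags in siNEG against 334 and 381. In the ab4729 lists, ETV6 cover was 9.44 kb in siNEG and 15.13 kb in siFLI1, and ETV1 cover was 2.87 and 3.85 kb. Both covers go against the direction in the replicated lists. The whole siFLI1 ab4729 list also covered more than the siNEG one (25.53 against 15.39 Mb), and the part of this in the difference was not tested. At the 3 lower ETV1 regions, ab4729 summits were 31, 26 and 17 tags in siNEG, and 15 tags, 19 tags and no peak in siFLI1. Of the 5 lower ETV6 regions, chr12:11801135-11802864 had no ab4729 peak. The others had ab4729 summits of 31, 21, 14 and 17 tags in siNEG, and 20, 20, 12 and 20 in siFLI1.

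ELF1 (chr13:40931924-41061440, minus strand), an activator best known from blood cells, had a single H3K27ac region. It covers an upstream ELF1 start, at -41.8 kb from the MANE start, and that of the neighbouring gene WBP4 (chr13:41059485-41062713), and it stood at 48 and 41 tags in siNEG and 100 and 59 in siFLI1, with no overlap. H3K4me3 at the same place overlapped between arms, at 178 and 160 tags in siNEG and 194 and 173 in siFLI1. Which of the 2 genes the acetylation belongs to cannot be told apart here.

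ELK3 (chr12:96194375-96269824, plus strand), a ternary complex factor that represses until it is phosphorylated through MAP kinase signalling, had the most gained regions of the 10 genes. Of its 12 H3K27ac regions, 4 were gained and 0 were lost. The first, chr12:96187309-96188161, lay at -6.6 kb from the start, at 39 and 28 tags. The other 3 lay inside the gene, at chr12:96219521-96219950 (40 and 34 tags), chr12:96220980-96221680 (27 and 26 tags) and chr12:96239365-96240654 (40 and 23 tags). The first and second were also in the siFLI1 ab4729 list and not in the siNEG one. Cover was 4.77 and 3.88 kb in siNEG and 6.82 and 5.24 kb in siFLI1. H3K27ac at the ELK3 promoter (chr12:96194483-96197530) did not separate the arms, with 139 and 79 tags in siNEG and 84 and 84 in siFLI1. A short promoter region beside it, chr12:96194062-96194437, was in siFLI1 replicate 2 alone, with 19 tags. H3K4me3 there did (chr12:96193645-96197752), with 199 and 207 tags in siNEG and 272 and 288 in siFLI1. ELK3 also held the only gained H3K4me3 region of the 10 genes, chr12:96192653-96193472, with 22 and 23 tags. It lies upstream of that promoter region and within 1 kb of it, and it was no longer called with peaks at a −log10 q of at least 5.

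**Figure D3:**
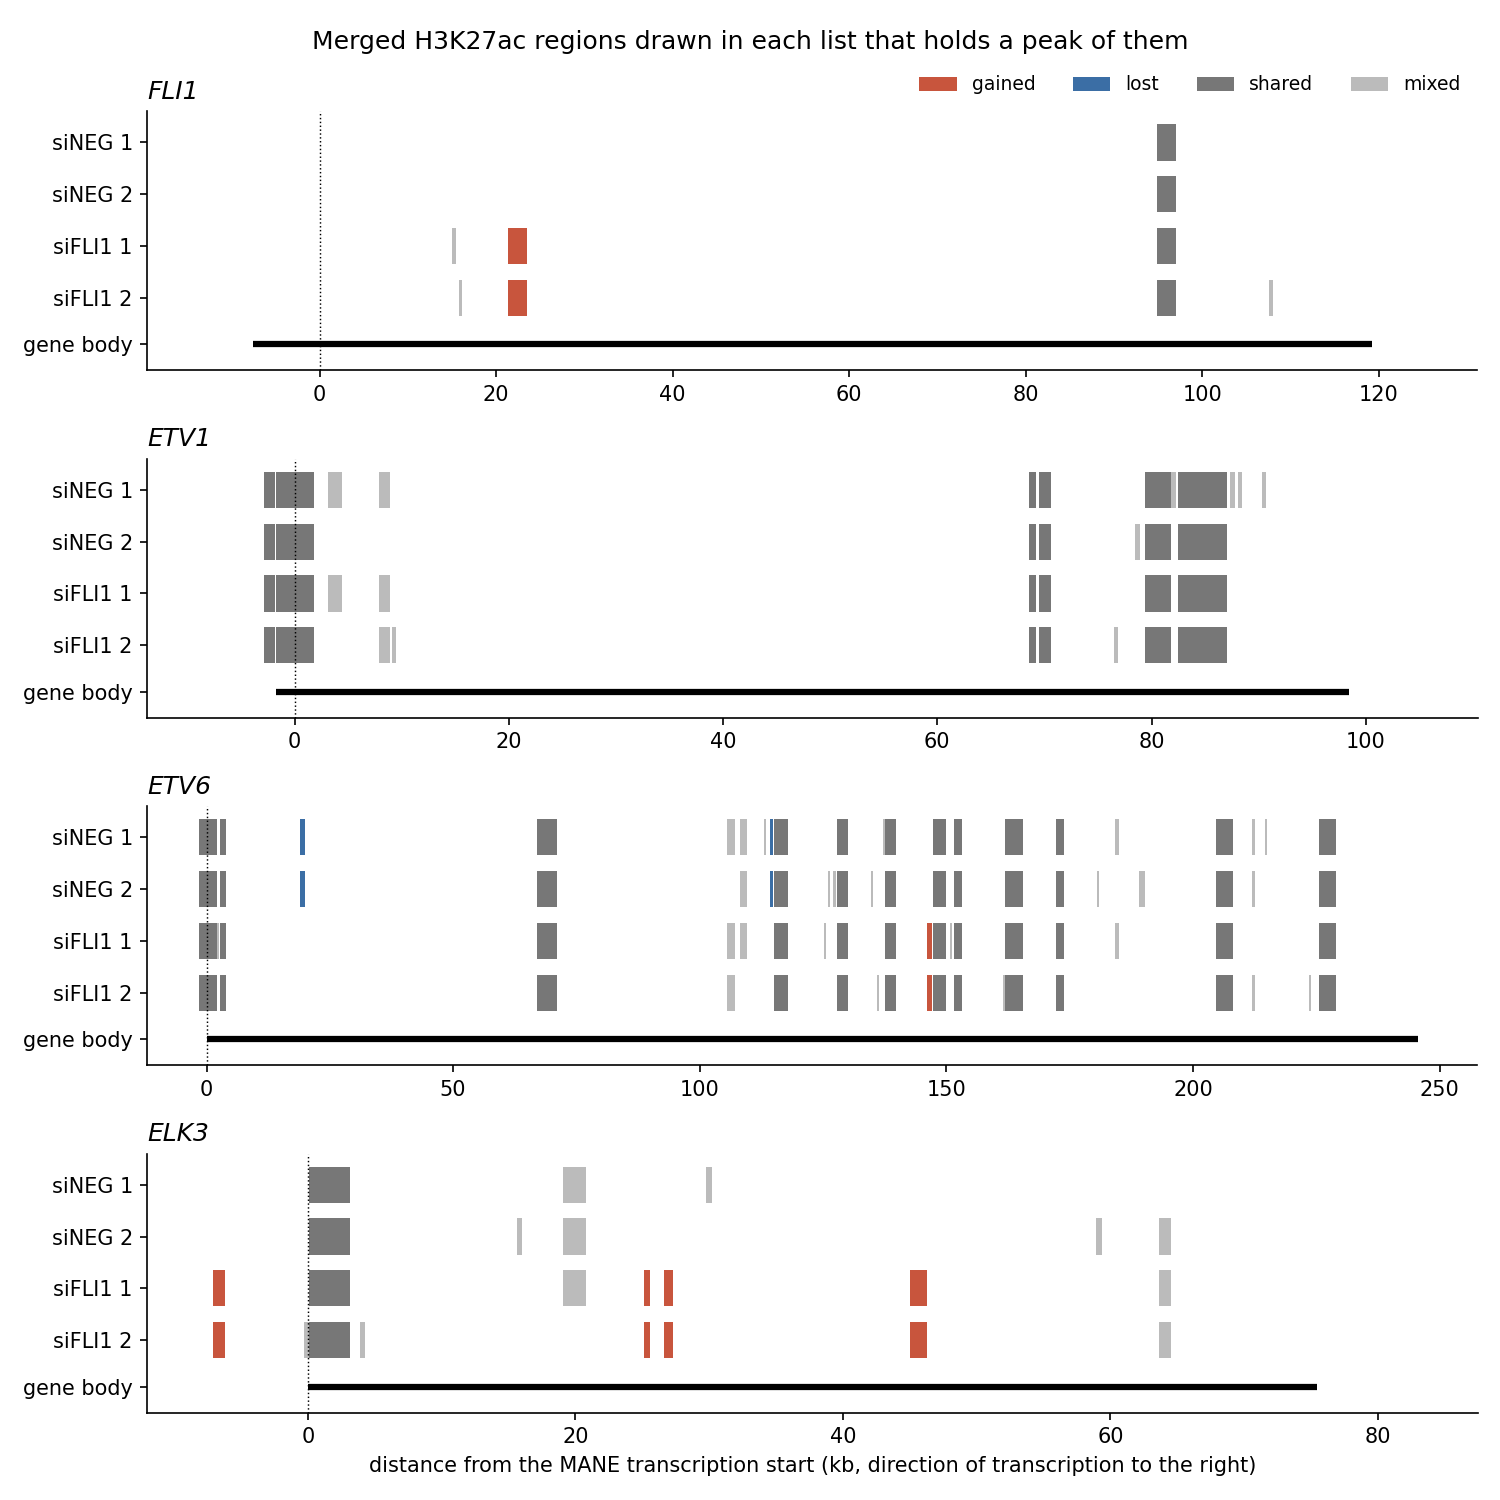
H3K27ac regions at FLI1, ETV1, ETV6 and ELK3, as distance from the MANE start in kb, with a bar in each list that holds a peak of the region and the gene body in black. Gained regions (red) number 4 at ELK3, and FLI1 has a gained region 22.4 kb and a shared one 96.0 kb after the start.

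GABPA (chr21:25734570-25772460, plus strand), which binds CCGGAA in housekeeping and mitochondrial gene promoters, had the only ETS1 region of the 10 genes that was in both siFLI1 lists. These 2 lists were counted as 1 sample, so presence in both is not replication. The region, chr21:25735368-25735968, overlaps annotated untranslated sequence and lies 0.7 kb after the GABPA start, within 1 kb of the divergent gene ATP5PF, a subunit of the mitochondrial ATP synthase. Summits stood at 34 and 31 tags, against list medians of 22 and 17 tags. The authors' fold over background was 10.9 and 13.0, higher than 94.9% and 94.6% of the peaks of those lists. Neither siNEG ETS1 list held it. Gained regions were 44% and lost ones 0.0739% of all 2706 ETS1 regions, so a gained call is common among ETS1 peaks. Site 1 shown above lay 8 bp from the summit of siFLI1 replicate 1, and site 2 lay 9 bp from that of replicate 2. A match within 50 bp of the replicate 2 summit was present at 10.7% of the 1523 ETS1 regions in both siFLI1 lists. The chromatin at the GABPA promoter was already marked in siNEG. H3K27ac (chr21:25732386-25736867) stood at 189 and 149 tags in siNEG and 204 and 158 in siFLI1. H3K4me3 (chr21:25731463-25737855) was the tallest of the 10 genes, at 571 and 603 tags in siNEG and 596 and 581 in siFLI1. Both overlapped between arms. One H3K27ac region in the gene body, chr21:25767798-25768333, was lost from 25 and 18 tags. The other ETS1 peak, at ETV4, was in siFLI1 replicate 2 alone, with 11 tags, and higher in fold than only 9.73% of that list. Without siFLI1 replicate 1 it would count as gained, giving 2 gained ETS1 regions. No ETS1 peak lay at the other 8 genes in any list.

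Summit heights were recovered from the deposited values after the lists had been seen and were compared relative to the estimated depth. Of the 23 shared H3K27ac regions, 5 were higher in both siFLI1 lists than in both siNEG lists, against 34.6% of all 22724 shared regions. Another 9 were lower, against 22.8%. The median log2 ratio was -0.10, against 0.08 over all shared regions. All 9 lower regions were in ETV6 (5), ETV1 (3) and FLI1 (1). The regions within a gene share its libraries and are not independent. Of 8 shared H3K4me3 regions, the 3 at FLI1, ETS2 and ELK3 were higher and the 1 at ETV6 was lower, against 31.9% and 29.6% of all shared H3K4me3 regions.

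**Figure D4:**
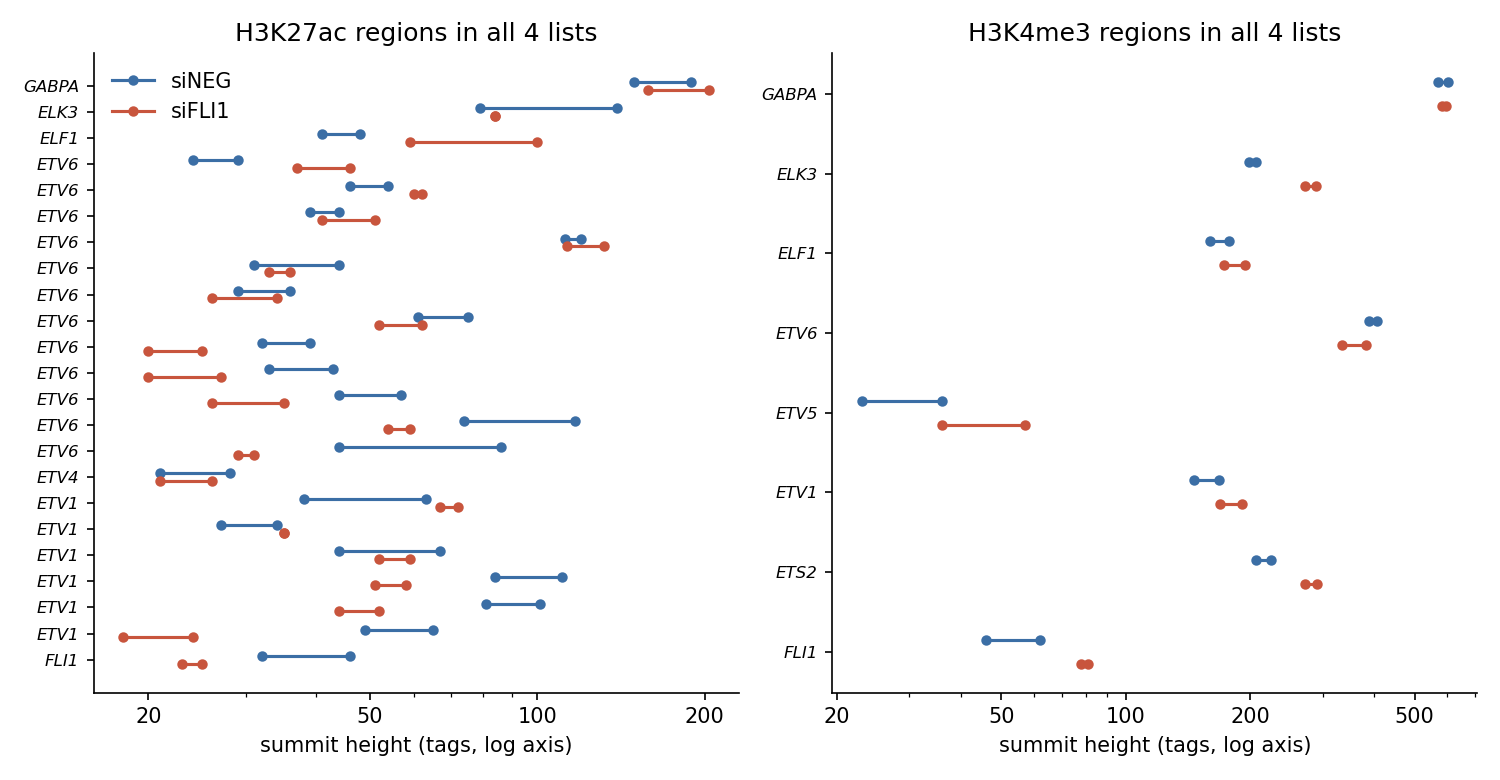
Summit height in tags (log axis) of each region held by all 4 lists, H3K27ac on the left and H3K4me3 on the right, named by gene, with the 2 replicates of an arm joined by a line. H3K27ac at 3 ETV1 and 5 ETV6 regions and at FLI1 is lower in siFLI1, while H3K4me3 at FLI1, ETS2 and ELK3 is higher.

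Few H3K4me3 regions of the 10 genes were gained or lost. Of 15 merged regions, 1 was gained (2.17% over all regions) and 0 were lost (2.83%). Another 8 were shared (62.6% over all regions) and 6 mixed (32.4%). Leaving out siFLI1 replicate 1 gave 3 gained regions. Leaving out siNEG replicate 1, siNEG replicate 2 or siFLI1 replicate 2 gave 1, 3 or 1 lost regions. Covered length was longer in both siFLI1 lists at FLI1, ETS2, ETV5 and ELK3, 4 of 9 members with a peak, against 16.1% of protein-coding genes. It was shorter at ETV6 and GABPA, 2 of 9, against 43.8%. At FLI1 it went from 1.33 and 1.47 kb in siNEG to 2.67 and 2.21 kb in siFLI1 (log2 ratio 0.80). At ELK3 it went from 3.06 and 3.10 kb to 4.53 and 4.11 kb (log2 ratio 0.49). The sum over the 10 windows was 31.74 and 32.35 kb in siNEG and 33.01 and 33.72 kb in siFLI1, a log2 ratio of 0.06 (SD of log2 length 0.02 in each arm, exact two-sided permutation p = 0.33, n = 2 per arm). The genome's ratio was -0.10. With gene bodies only, ELF1 was also longer and GABPA was no longer shorter. In the full windows FLI1, ETS2 and ELK3 were thus longer in both marks, ETV6 and GABPA were shorter in both, and ETV1 was shorter in H3K27ac with H3K4me3 overlapping between arms. The share of all protein-coding genes that were longer or shorter in both marks was not computed, so these joint counts have no background.

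RefSeq promoter sequences (GRCh38.p14) were found for 7 of the 10 genes, in 19 entries, namely ERG, ETS2, ETV1, ETV6, ELF1, ELK3 and GABPA. The 250 bases before the start are shown in the direction of transcription for an unmarked start, an upstream ERG start (chr21:38660668-38660917), and for marked ones, ELK3 (chr12:96194125-96194374) and ETV6 (chr12:11649424-11649673). CpG dinucleotides are in capitals.
ERG: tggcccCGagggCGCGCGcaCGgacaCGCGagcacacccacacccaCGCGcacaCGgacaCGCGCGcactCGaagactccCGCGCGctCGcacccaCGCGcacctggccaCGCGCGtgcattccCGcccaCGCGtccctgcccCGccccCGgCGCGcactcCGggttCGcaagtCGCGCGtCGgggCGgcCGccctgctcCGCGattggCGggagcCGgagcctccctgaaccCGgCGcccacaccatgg
ELK3: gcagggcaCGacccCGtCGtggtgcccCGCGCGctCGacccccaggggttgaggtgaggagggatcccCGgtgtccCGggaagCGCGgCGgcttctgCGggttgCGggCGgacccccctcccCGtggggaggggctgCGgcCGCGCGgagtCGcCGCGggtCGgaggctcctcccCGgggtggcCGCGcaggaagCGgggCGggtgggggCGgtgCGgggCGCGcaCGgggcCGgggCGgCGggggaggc
ETV6: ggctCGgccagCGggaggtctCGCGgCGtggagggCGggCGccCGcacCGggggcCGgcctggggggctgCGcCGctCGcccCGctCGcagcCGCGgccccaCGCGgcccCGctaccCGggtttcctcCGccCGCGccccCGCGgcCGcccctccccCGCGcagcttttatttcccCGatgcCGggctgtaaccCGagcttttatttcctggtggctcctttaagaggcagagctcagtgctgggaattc
The ERG stretch has 44 CpG, the ELK3 stretch 37 and the ETV6 stretch 32, against a median of 11 over all RefSeq promoters. The other 3 ERG entries have 2 to 3 CpG. The GABPA entry has 14, those of ETS2 have 12 and 13, those of ETV1 0 to 15, those of ELF1 3 to 22, and the second ELK3 entry 8. CpG content was not compared with H3K4me3 over starts. CCGGAA on either strand was in 4 of the 19 member entries (3 of ETV1 and 1 of GABPA) and in 14.5% of all 35116 entries. Entries of a gene can overlap.

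Among the 18 other ETS genes, counted for comparison, 12 of 84 H3K27ac regions were gained (14.3%) and 1 was lost (1.19%). The gained ones were at ETS1 (4), EHF (4), ELF3 (2) and ELF4 (2), and the lost one was at ELF4. At ETS1 all 4 H3K27ac regions were gained, the tallest with 58 and 53 tags (chr11:128506407-128508222). EHF, an epithelial ETS factor, had its widest gained region at chr11:34631254-34634639, with 40 and 32 tags. The ELF4 regions were gained at 27 and 23 and at 35 and 23 tags and lost from 26 and 26 tags. ELF3, also epithelial, gained its promoter region chr1:202009812-202010595, with 43 and 34 tags. ETS1 peaks were gained at ETV3 (17 and 18 tags), ELF2 (19 and 18 tags, and 18 and 17 tags) and ERF (19 and 17 tags). ERF, a repressor, also held an ETS1 region in all 4 lists, with 23 and 26 tags in siNEG and 32 and 32 in siFLI1. Relative to depth its log2 ratio was 0.63, near the median of 0.70 over all 126 shared ETS1 regions. ETS1 peaks at ELF4 (18 tags) and ELK1 (15 and 10 tags) were in siFLI1 replicate 2 only. The difference between these 18 genes and the 10 was not tested.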

How the data were processed

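The data were 14 deposited peak lists, each from 1 immunoprecipitated TC-32 library. Per the submitters' processing notes, the tools were cutadapt 4.4, BWA 0.7.17, Picard 2.17.11 and MACS2 2.1.1, and the builds named were GRCh38, hg38 and dm6, with no role given. Per the file layout, peaks were called for each library separately. The deposited fold is the authors' ratio of a summit over its background, and the deposited −log10 p-value and −log10 q-value are the authors' test per peak. The deposited score was not used. Contig names are those of hg38, and coordinates count from 1. A stronger immunoprecipitation passes more peaks, so presence in a list is not occupancy.

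Contigs other than the 22 autosomes, X and Y were dropped, and the 4 lists of an antibody were merged at an overlap of at least 1 bp. Promoter means within 1 kb of a transcription start of GENCODE release 44. Summit heights were recovered from fold and −log10 p under the MACS2 formulas, as whole tags within a tolerance of 0.05 tags for 100% of peaks in all 14 lists. Depths rest on the same formulas, on a fragment equal to the shortest interval and on a genome of 2.7 Gb, none of which the authors stated. Replicates were compared by a chi-square of these heights. Covered length was compared with exact two-sided permutation tests, and scripts were tested on simulated data. All 10 genes were described, with each ETS1 region, promoter region and gained or lost region, and printed sequences were 2 stretches of the GABPA ETS1 peak, the ETV4 one, windows of the 3 gained and 3 lost regions of highest mean fold, and 3 promoter stretches chosen after their values were seen. Python 3.11.15, pandas 2.3.3, SciPy 1.17.1 and pysam 0.24.0 were used. The genes, lists and tests were chosen with earlier results of these data known.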

Additional observations from a re-analysis of the deposited data

How the results depend on the processing

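With peaks at a −log10 q of at least 5, the gained H3K4me3 region of ELK3 was no longer called (0), as with gene bodies only (0) or with absence defined as no peak within 1 kb (0). Gene bodies only left 2 genes with longer H3K27ac cover (FLI1 and ETS2). Windows of 50 kb to each side held 11 gained H3K27ac regions, and joining intervals only at 50% of the shorter left 2 lost ones. The ab4729 lists, 1 per arm, gave 31 gained and 10 lost regions, 0 genes with shorter cover and a log2 ratio of H3K27ac cover of 0.73, against -0.20 in the replicated lists. The cause was not tested.

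Leaving out 1 list at a time gave 7 to 19 gained and 4 to 19 lost H3K27ac regions, 1 to 3 gained and 0 to 3 lost H3K4me3 regions, 1 to 2 gained and 0 lost ETS1 regions, 4 genes with longer and 4 to 5 with shorter H3K27ac cover, and log2 ratios of -0.33 to -0.07 for H3K27ac and 0.04 to 0.07 for H3K4me3. The gained H3K27ac count was highest without siFLI1 replicate 1 (19) and the lost count without siNEG replicate 1 (19), because presence then rests on 1 list. With the replicate block the ratios were -0.20 and 0.06 (exact two-sided sign-flip p = 0.50 for each, the smallest that 2 pairs allow). Same-numbered lists did not deviate together, at a correlation of 0.02 for H3K27ac and -0.01 for H3K4me3 across genes. Genes with longer H3K4me3 cover numbered 4 to 5 and those with shorter cover 2 to 3. With gene bodies only, they were 5 and 1 (ETV6), and genes with shorter H3K27ac cover were 3. Gained and lost H3K27ac regions stood at 18 to 40 tags, and the lists end at 13 to 15 tags.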
